A study of Rattus norvegicus with 24 samples.

Results

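The oxidative phosphorylation genes of the rat testis were followed here across 6 groups of arrays. Members were the nuclear genes whose symbol begins with Nduf, Cox4 to Cox8, Uqcr, Atp5 or Sdha to Sdhd, and which had a probe set annotated to that symbol alone on the Affymetrix Rat Genome 230 2.0 array. This gave 90 genes of the 14217 with such a probe set. For the 10 members with several such probe sets, the brightest over the 24 arrays stood for the gene. The members comprised 6 core and 28 supernumerary subunits of complex I, 4 subunits of complex II, 7 of complex III, 16 of complex IV (with Ndufa4, named for complex I, counted there), 15 of complex V, 10 assembly factors, and 4 others. Those 4 were Ndufa4l2, Cox7a2l, Atp5if1 and the pseudogene Cox6c-ps1.

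All animals were male Fisher 344 rats, no genetic modification was recorded, and the tissue was whole testis with the tunica removed. Dams received corn oil or dibutyl phthalate (DBP, a plasticizer known to lower fetal testosterone) at 50 mg/kg in corn oil by daily gavage from gestation day (GD) 12 to GD 20. Fetal testes were taken on GD 20 from 4 oil dams (2, 3, 4 and 5) and 4 DBP dams (16, 18, 19 and 21). The DBP dams were sampled 6 h after the last dose, no interval was recorded for the oil dams, and the array of dam 2 was labelled as pooled. Other offspring were raised to postnatal day (PND) 35, given a single gavage of corn oil or of 500 mg/kg DBP, and sampled 6 h later. They formed 4 groups of 4 pups each, named by the fetal and then the postnatal exposure: oil-oil (pups 104, 110, 114 and 120), oil-DBP (105, 111, 115 and 121), DBP-oil (123, 127, 132 and 134) and DBP-DBP (124, 128, 133 and 135). By the labels the arrays of a group came from different dams at GD 20 and from different pups at PND 35. Precision is limited by 4 arrays a group. The dams of the PND 35 pups were not given, so some pups may share a litter. The fits took each pup as a replicate, although the fetal exposure was given to the dam. RNA of the fetal testes came from Trizol followed by a micro kit, and PND 35 RNA with a column kit on 14 arrays and with Trizol and a clean-up on the arrays of pups 104 and 115.

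Oxidative phosphorylation takes place in the inner mitochondrial membrane. Complexes I and II feed electrons from NADH and succinate to ubiquinone, complex III passes them to cytochrome c and complex IV to oxygen, and complex V uses the proton gradient built by complexes I, III and IV to make ATP. Complex IV carries several subunits that exist as tissue isoforms, among them the testis forms Cox6b2, Cox7b2 and Cox8c, which are known from spermatogenic cells, and the heart and skeletal muscle forms Cox6a2, Cox7a1 and Cox8b. Cox8c and the cytochrome c genes were not analysed here, since they had no single-symbol probe set.

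Values are probe-set intensities on a linear scale, given by array in the order of the dams and pups above. Intensities of different probe sets are not comparable as levels. A difference is in log2(intensity + 16) with its standard error, and a member was called at a Benjamini-Hochberg adjusted p under 0.05 over all 31042 non-control probe sets in limma. Every adjusted p below is from that test, which is two-sided.

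Between the fetal and the juvenile testis the largest differences among the members were in the isoforms of complex IV and in a single assembly factor. In control animals, PND 35 oil-oil against GD 20 oil, 62 of the 90 members were higher at PND 35 and 15 were lower. Among all 14217 genes, 29.6% were called higher and 44.4% lower. The median difference was 0.61 over the members and -0.24 over all genes. The juvenile arrays were all above the fetal ones for 60 members and all below for 14, against 28.5% and 42.3% of all genes. A change of at least 2-fold was seen in 20 of the higher and 6 of the lower members. Whole testis was measured, so fewer cells of a type and less RNA per cell cannot be told apart. Age also cannot be told apart from the extraction kit.

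The testis isoforms and their ubiquitous partners moved in opposite directions. Cox7b2, a testis form of a small structural subunit of complex IV, read 437, 418, 422 and 417 in the GD 20 oil testes and 26666, 23968, 25213 and 21892 in the PND 35 oil-oil testes. Every juvenile array was far above every fetal one, with means of 423 ± 9.08 and 24435 ± 2022 (SD, n = 4 each), a ratio of 57.7. The log2 difference was 5.79 ± 0.07 (adjusted p = 1.07e-15), the largest of any member. Cox7b, the ubiquitous form of the same subunit, read 7448, 8164, 7710 and 7568 in the fetal testes against 1435, 1221, 1548 and 1349 in the juvenile testes. The fetal arrays were all above the juvenile ones, and the mean was 5.56 times as high in the fetus, with a log2 difference of -2.47 ± 0.07 (adjusted p = 2.09e-12).

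Cox6b2 and Cox6b1 are the testis and ubiquitous forms of the subunit that links the monomers of the complex IV dimer. Cox6b2 read 1064, 1298, 1282 and 1303 in the fetal and 15020, 13857, 13372 and 11953 in the juvenile control testes. The groups did not overlap, and the means of 1237 ± 116 and 13550 ± 1270 (SD, n = 4 each) gave a log2 difference of 3.44 ± 0.08 (adjusted p = 2.92e-13). Cox6b1 read 5785, 6300, 5667 and 5736 in the fetus and 3063, 2421, 3383 and 3009 at PND 35. It was lower in every juvenile array, by a log2 difference of -0.99 ± 0.09 (adjusted p = 2.13e-07). Cox8a, the ubiquitous partner of the testis form Cox8c, was lower at PND 35 too (7009 ± 137 against 3320 ± 218, SD, n = 4 each; log2 difference -1.08 ± 0.06, adjusted p = 1.71e-09).

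Both partner pairs are shown with the 250 bases before the RefSeq start site of each gene (GRCr8, strand as given, written 5′ to 3′), since the paired genes moved in opposite directions and their start regions can be set side by side. Capitals mark the SP/KLF motif GGGCGG, the only match of 5 searched motifs in these 4 sequences. The pair Cox6b1 (chr1:95009853-95010102, minus strand) and Cox6b2 (chr1:78122621-78122870, plus strand) lies on chromosome 1, Cox7b (chrX:75148786-75149035, plus strand) on the X chromosome and Cox7b2 (chr14:37046831-37047080, plus strand) on chromosome 14.
Cox6b1: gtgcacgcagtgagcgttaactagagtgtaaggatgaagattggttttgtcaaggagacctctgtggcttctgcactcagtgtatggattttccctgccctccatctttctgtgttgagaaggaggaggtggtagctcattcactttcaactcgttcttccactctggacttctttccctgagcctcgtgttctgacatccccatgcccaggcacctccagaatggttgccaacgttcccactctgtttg
Cox6b2: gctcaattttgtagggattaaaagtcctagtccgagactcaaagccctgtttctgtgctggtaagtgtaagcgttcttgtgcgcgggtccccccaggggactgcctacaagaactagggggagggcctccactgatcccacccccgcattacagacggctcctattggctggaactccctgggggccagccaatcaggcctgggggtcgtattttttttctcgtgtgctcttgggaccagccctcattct
Cox7b: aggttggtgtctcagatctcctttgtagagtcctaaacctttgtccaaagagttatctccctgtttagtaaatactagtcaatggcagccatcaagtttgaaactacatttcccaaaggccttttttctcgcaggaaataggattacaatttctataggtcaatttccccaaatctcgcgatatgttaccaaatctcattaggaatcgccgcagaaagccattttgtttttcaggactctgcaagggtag
Cox7b2: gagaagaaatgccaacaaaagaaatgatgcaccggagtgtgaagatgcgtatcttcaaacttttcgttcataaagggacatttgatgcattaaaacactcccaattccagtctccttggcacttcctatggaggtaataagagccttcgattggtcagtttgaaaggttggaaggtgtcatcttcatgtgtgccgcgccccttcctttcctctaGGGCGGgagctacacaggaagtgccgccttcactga

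**Figure D1:**
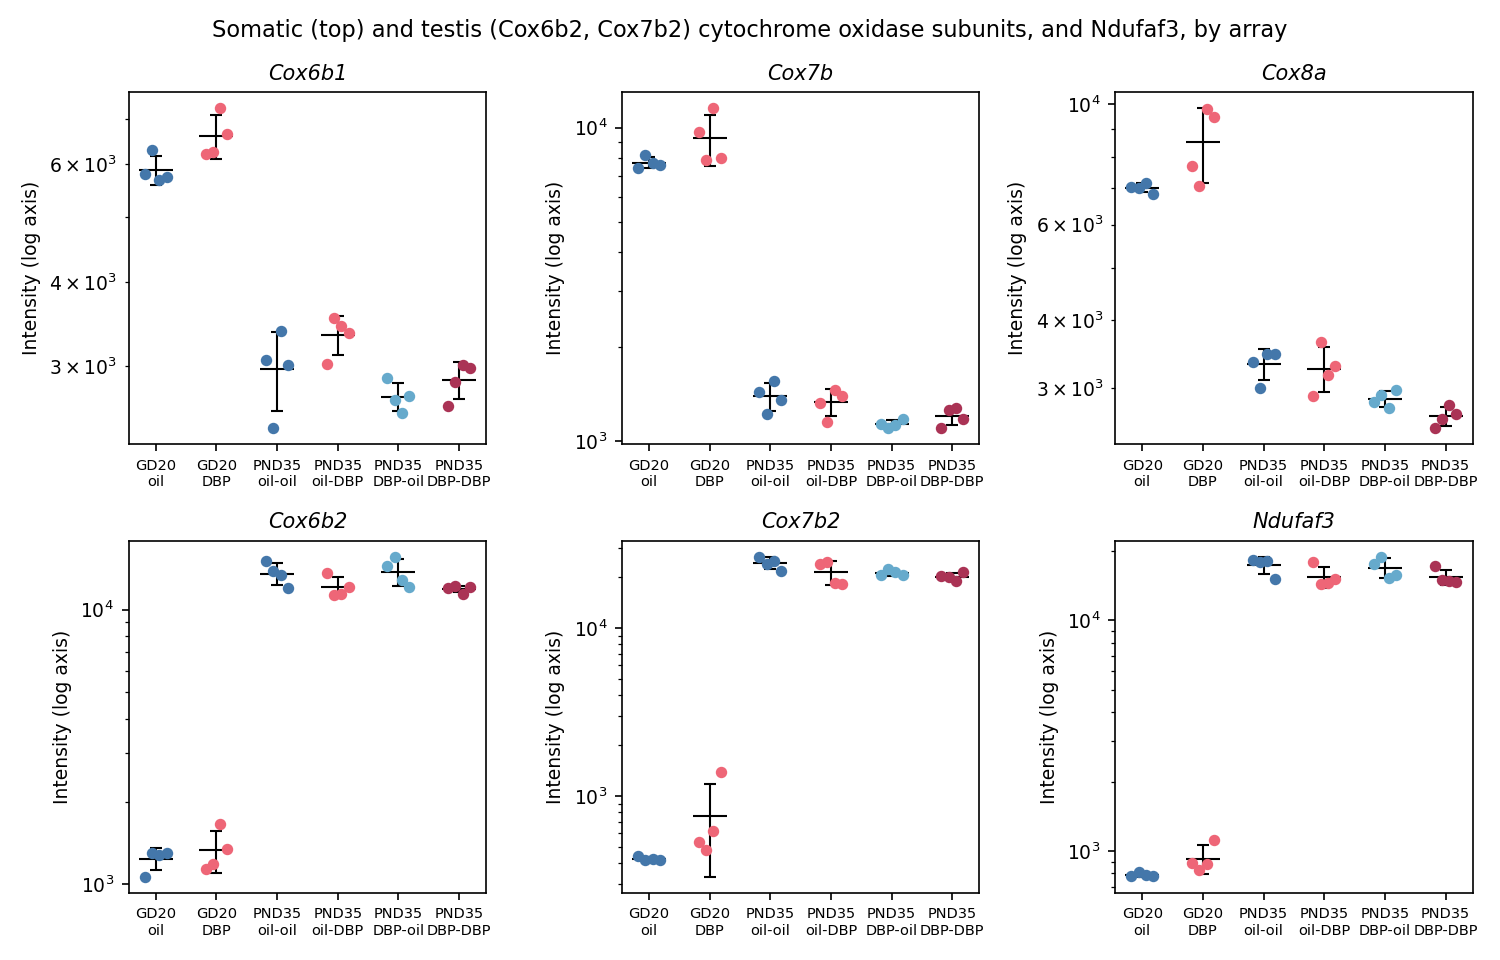
Intensity on a log axis of Cox6b1, Cox7b and Cox8a (upper panels) and of Cox6b2, Cox7b2 and the assembly factor Ndufaf3 (lower panels) in the 6 groups; points are arrays, and bars are the mean ± SD of 4 arrays. The upper genes step down and the lower genes step up between GD 20 and PND 35, for example from 7723 to 1388 for Cox7b and from 423 to 24435 for Cox7b2, while the 4 PND 35 groups lie close together.

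The 3 muscle forms were dim at both ages and none was called. Cox6a2 averaged 7.29 in the fetal and 7.66 in the juvenile control testes, Cox7a1 averaged 114 and 93.9, and Cox8b averaged 35.1 and 18.6. Cox4i2, a lung-enriched alternative to Cox4i1 of complex IV, fell from 292 ± 20.3 to 65.1 ± 35.1 (SD, n = 4 each), a log2 difference of -2.03 ± 0.27 (adjusted p = 1.2e-05). Cox4i1 itself, the ubiquitous form, rose from 10850 ± 404 to 21408 ± 1345, a log2 difference of 0.98 ± 0.06 (adjusted p = 8.49e-09).

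In complex IV as a whole 8 of 16 subunits were higher and 5 lower, with a median difference of 0.13. Cox5b, a matrix-side subunit, rose most among those without a tissue isoform (log2 difference 1.49 ± 0.07, adjusted p = 1.82e-10). Ndufa4, which associates with complex IV, fell from 6695 ± 293 to 3282 ± 375 (SD, n = 4 each), a log2 difference of -1.03 ± 0.08 (adjusted p = 5.06e-08). The biggest rise and the biggest fall of any subunit were thus both in complex IV. The complex I subunits moved more evenly: 24 of 28 supernumerary subunits were higher and 1 was lower, with a median difference of 0.79. That 1 was Ndufb11, a membrane-arm subunit (log2 difference -0.88 ± 0.07, adjusted p = 2.98e-08). Among the 6 core subunits 5 were higher and none was lower. Ndufv2, an iron-sulfur subunit of the NADH-binding module, rose most (3243 ± 175 to 10352 ± 1092, SD, n = 4 each; log2 difference 1.67 ± 0.08). Its neighbour in that module, the flavin-binding Ndufv1, did not pass the test (log2 difference 0.03, adjusted p = 0.659).

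Complex III was higher in 6 of 7 subunits, with a median difference of 0.89. Its Rieske iron-sulfur protein Uqcrfs1 read 6524, 6202, 6036 and 6372 in the fetus and 24927, 23515, 23431 and 20949 at PND 35. No arrays of the ages overlapped, and the log2 difference was 1.88 ± 0.07 (adjusted p = 1.04e-11). Complex V was higher in 10 of 15 subunits and lower in none, with a median of 0.43. Atp5f1e, the small epsilon subunit of the catalytic head, rose most (6258 ± 206 to 13960 ± 1603; log2 difference 1.15 ± 0.08). Atp5if1, the inhibitor that binds complex V when it would run in reverse, rose from 2613 ± 147 to 4890 ± 388 (log2 difference 0.90).

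Complex II, which is also the succinate dehydrogenase of the citric acid cycle, went the other way on the deposited scale. All 4 subunits were called lower, with a median difference of -0.35. Sdhd, one of its membrane anchors, read 3672, 3624, 3635 and 3350 in the fetus and 1417, 1451, 1734 and 1518 at PND 35, with no overlap (log2 difference -1.22 ± 0.07, adjusted p = 2.42e-09). The iron-sulfur subunit Sdhb (-0.41 ± 0.07), the anchor Sdhc (-0.29 ± 0.06) and the flavoprotein Sdha (-0.25 ± 0.07) differed by less. Only Sdhd stayed lower under each of the 4 scalings tried, and Sdha, Sdhb and Sdhc were called higher when arrays were centred on their medians.

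Of the 10 assembly factors 6 were higher and 4 lower. Ndufaf3, which helps to build the peripheral arm of complex I, read 781, 812, 790 and 776 in the fetus and 18191, 17834, 17991 and 15092 at PND 35. Its juvenile mean was 21.9 times the fetal mean with no overlap (log2 difference 4.42 ± 0.07, adjusted p = 9.61e-15), behind only Cox7b2 among the members. Ndufaf7, a methyltransferase for complex I assembly, and Ndufaf8 rose 2.91-fold and 2.73-fold. Ndufaf4, a further complex I assembly factor, fell from 891 ± 33.2 to 549 ± 84.6 (SD, n = 4 each; log2 difference -0.69 ± 0.10, adjusted p = 3.46e-05). The factors that mature complex II also included falls, in Sdhaf1 (log2 difference -0.70), Sdhaf4 (-0.56) and Sdhaf3 (-0.32). Cox7a2l, which joins complex III to complex IV in supercomplexes, fell from 5554 ± 78.4 to 2325 ± 186 (log2 difference -1.25 ± 0.06, adjusted p = 6.1e-10).

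**Figure D2:**
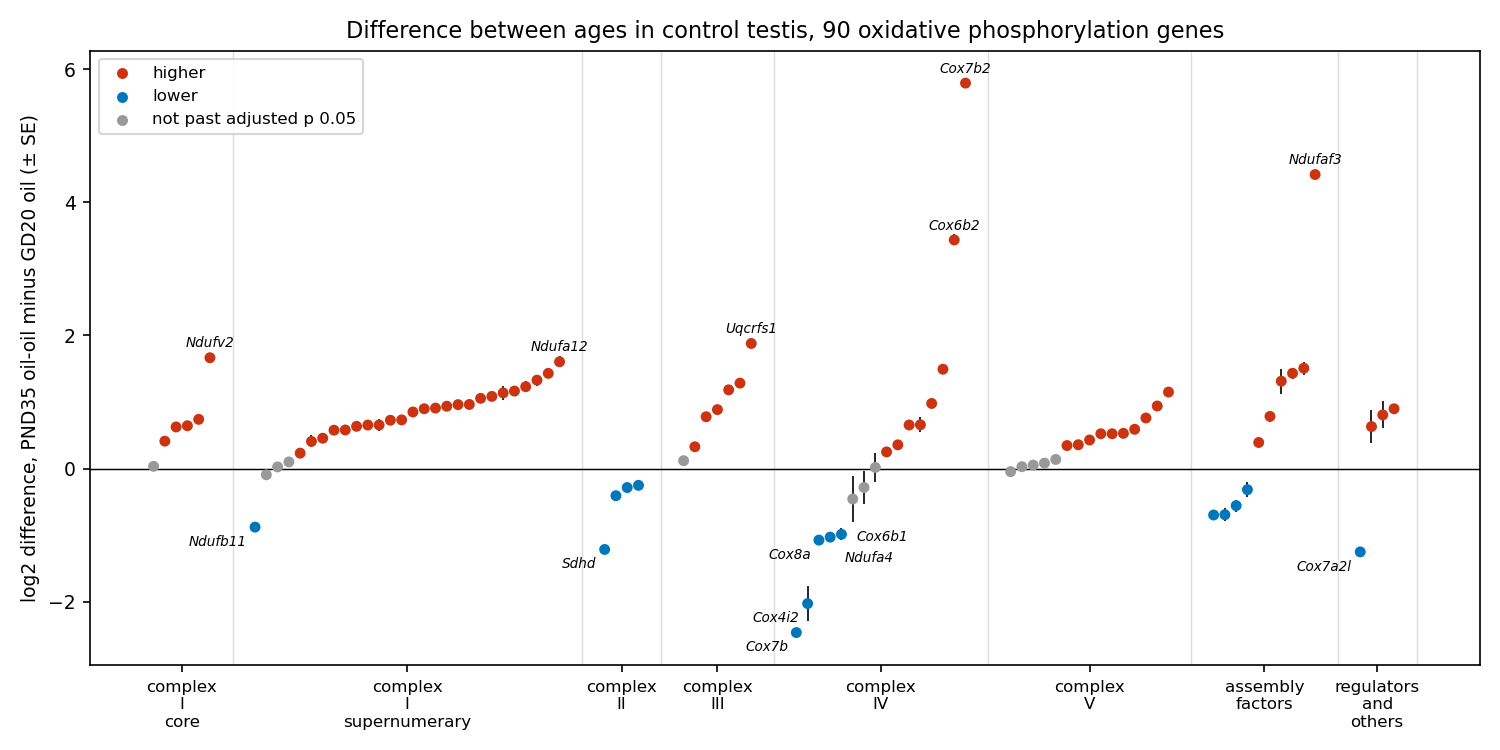
Log2 difference of each of the 90 members between the PND 35 oil-oil and GD 20 oil testes, grouped by complex, with bars of 1 SE from limma on 4 arrays a group. Complex IV spans the widest range, from -2.47 for Cox7b to 5.79 for Cox7b2, the 4 complex II subunits lie below 0, and the assembly factors run from -0.70 for Sdhaf1 to 4.42 for Ndufaf3.

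The count of higher and lower members depended on how the 2 ages were scaled to each other. It was 77 higher and 8 lower with arrays centred on their medians, 72 and 11 when centred on the 75th percentile, and 53 and 25 after quantile normalization, with member medians of 1.26, 0.91 and 0.30. These scalings moved the median of all probe sets by 0.65, 0.30 and 0.32. Of the 62 higher members, 53 were higher under all 4 scalings. The 8 members lower under all 4 were Cox4i2, Cox6b1, Cox7a2l, Cox7b, Cox8a, Ndufa4, Ndufb11 and Sdhd. Complexes I and III kept more rises than falls under every scaling, whereas complex IV (6 higher, 6 lower) and complex V (6 higher, 5 lower) came close to even after quantile normalization. A second, dimmer probe set disagreed with the one used for 5 members with age. It was called lower for Ndufv3 (log2 difference -1.42 ± 0.17), Atp5me (-1.26 ± 0.31), Ndufa9 (-0.94 ± 0.30), Atp5po (-0.93 ± 0.36) and Ndufa7 (-0.51 ± 0.19), whose brighter probe sets were called higher. The second probe set of Sdhd fell too, by less (-0.30).

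Markers of other cell types moved with age as well. The summed intensity of 8 spermatid markers was 823 to 943 in the GD 20 oil arrays and 115099 to 155354 in the oil-oil arrays, and all 8 were called higher. That of 6 spermatocyte markers was 2401 to 2740 and 64025 to 71437, with all 6 called higher. The 7 Leydig cell markers summed to 56315 to 59581 in the fetus and 14755 to 20529 at PND 35, and all 7 were called lower. The 6 Sertoli cell markers summed to 32890 to 35326 and to 41683 to 50424, and went both ways, with 3 called higher and 3 lower and differences from -5.48 for Amh to 3.55 for Clu. The poly-A spike-in controls, RNAs added before labelling, had mean log2 values of 8.17 to 8.46 in the fetal oil and 5.90 to 6.06 in the oil-oil arrays. The part of the cell types and of the spike-in values in the members' differences was not tested. Cox7b, Ndufb11 and Ndufa1 are the members on the X chromosome. Ndufa1 was higher with age (log2 difference 0.65) and the other 2 were lower. Of 444 genes on that chromosome, 62 were called higher and 301 (67.8%) lower, with a median difference of -1.09, and of the 13717 genes placed elsewhere 30.2% were higher and 43.7% lower, with a median of -0.21.

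RefSeq start regions (GRCr8, 250 bases before and 50 after the start) were found for 82 members and searched on both strands for motifs of factors known from genes of the respiratory chain. The NRF1 motif CGCANGCGC was in 22 members (26.8%, against 6.34% of all 27457 regions of that length). The GABP motif CCGGAAG was in 25 (30.5% against 9.22%), the YY1 motif AANATGGCG in 20 (24.4% against 3.33%), the cyclic AMP response motif TGACGTCA in 3 (3.66% against 1.91%) and the SP/KLF motif GGGCGG in 38 (46.3% against 34.9%). The motifs were counted separately, and those that overlap each other were each counted. Of the 56 members with a region that were higher with age, 18 held the YY1 motif, 18 the GABP motif and 14 the NRF1 motif. Of the 14 that were lower, 1, 5 and 5 held them. The 27457 regions were not limited to genes with a probe set and were not matched to the members in base content. A match describes these letters only and is not evidence of binding.

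Fetal exposure to DBP left no member called at GD 20. In the GD 20 DBP against oil comparison, limma called 0 of the 90 members, and every alternative setting also gave 0. An unadjusted p under 0.05 was found for 33 members, against 3652 of the 31042 probe sets. Among all genes 0.302% were called higher and 0.253% lower. The members lay mostly above the controls: 81 had a difference above 0, and the median was 0.17, against 0.02 over all genes. In 17 members all 4 DBP arrays were above all 4 oil arrays, which 4.68% of all genes showed, and in none were they all below, which 3.72% showed.

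The smallest adjusted p belonged to Ndufb11, at 0.112. It averaged 5542 ± 187 in the oil and 7425 ± 1120 in the DBP testes (SD, n = 4 each), a log2 difference of 0.41 ± 0.10. Cox5b (log2 difference 0.34 ± 0.09, adjusted p = 0.176), the complex III subunit Uqcrq (0.28, adjusted p = 0.195), the complex I core subunit Ndufs8 (0.31, adjusted p = 0.203) and Atp5if1 (0.22, adjusted p = 0.207) came next. By class, all 15 complex V and all 28 supernumerary complex I subunits had differences above 0. The 10 assembly factors were split, with 4 above 0 and a median of -0.01, and complex II had a median of 0.04.

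The upward shift was not shared evenly by the DBP arrays. Relative to the oil mean, the median deviation of the members was 0.12 for dam 16, -0.01 for dam 18, 0.36 for dam 19 and 0.18 for dam 21, and it was between -0.01 and 0.01 for each oil array against the other oil arrays. The spike-in controls had a mean log2 value of 6.60 for dam 19 and 6.44 for dam 21, and of 8.17 to 8.77 for the other 6 arrays. Without dams 19 and 21 the median over the members was 0.06. A term for that class in the fit gives the same estimate, since the low class held only DBP arrays, so it is no separate check. The DBP arrays outside the low class differed from each other, with 80 of the 90 members above the oil mean in dam 16 and 41 in dam 18. In the low class 84 were above it in dam 19 and 77 in dam 21.

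**Figure D3:**
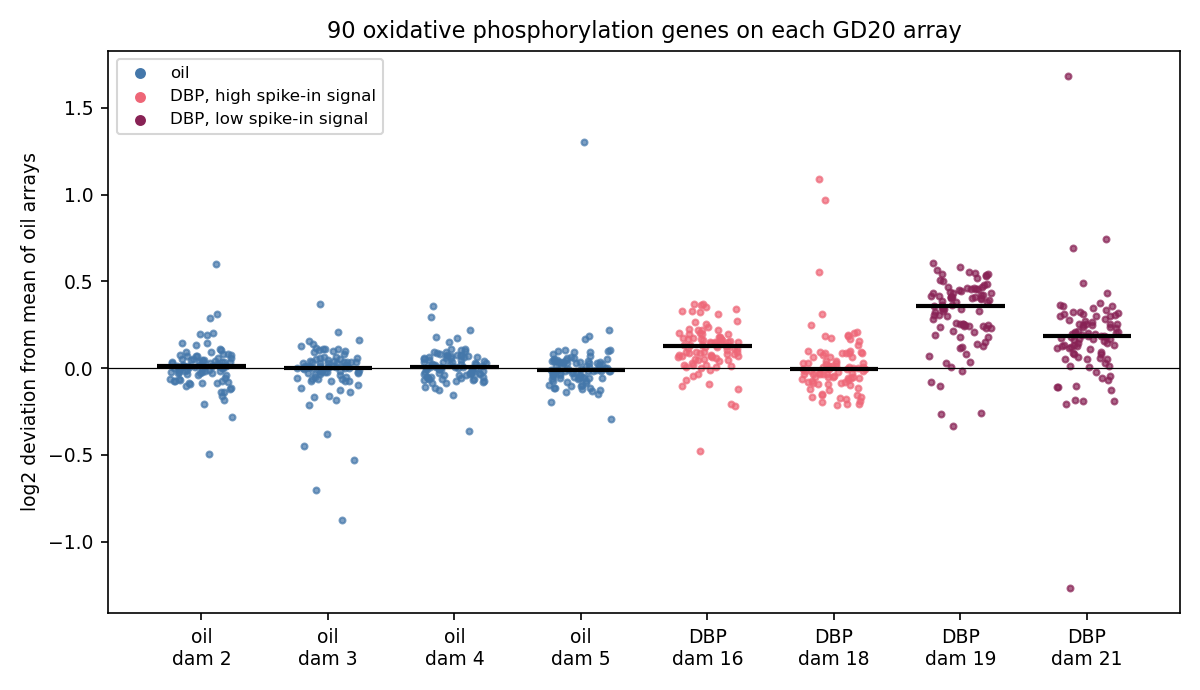
Log2 deviation of each of the 90 members from the mean of the GD 20 oil arrays, by array (each oil array against the other 3), with the array's median as a black line and colours for the spike-in class. The oil arrays have medians between -0.01 and 0.01, and the DBP arrays have 0.12, -0.01, 0.36 and 0.18, the last 2 in the low class.

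Of the testis isoforms, Cox7b2 set 1 DBP array apart and Cox6b2 did not. Cox7b2 read 437, 418, 422 and 417 in the oil and 536, 480, 623 and 1393 in the DBP testes. Every DBP array was above every oil array, with dam 21 highest, yet the difference did not pass the test (log2 0.68 ± 0.25, adjusted p = 0.305). Without dam 21 it was 0.35 (adjusted p = 0.18), and without dams 19 and 21 it was 0.25. The summed spermatid markers reached 5333 in the array of dam 21, above the 823 to 943 of the oil arrays, and their part in the Cox7b2 value was not tested. Cox6b2 read 1131, 1187, 1655 and 1347 in the DBP testes, which overlapped the oil testes (log2 difference 0.09 ± 0.11, adjusted p = 0.798).

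After the acute dose of DBP at PND 35 some members were called lower and 1 was called higher. After a fetal history of oil, oil-DBP against oil-oil, 1 member was called higher and 12 lower. Among all genes 6.18% were called higher and 5.99% lower. The median difference was -0.20 over the members and -0.11 over all genes, and 9 members lay above 0. The size of the fall depended on the scaling: the member median was -0.13 with arrays as deposited, beside -0.017 over all probe sets, and -0.062 after quantile normalization, beside -0.048. The count of lower members was then 4 and 3, and it was 1 when the variance model had no intensity trend. The oil-DBP arrays were all above the oil-oil arrays for 1 member, against 8.07% of all genes, and all below for 11, against 5.77%. The 12 were 7 supernumerary complex I subunits (Ndufv3 with them), 1 complex II subunit, 1 complex V subunit, 2 complex II assembly factors and Cox7a2l, and no complex IV subunit was called.

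Ndufaf4, the complex I assembly factor, was the 1 called higher. It read 481, 472, 633 and 612 in the oil-oil and 648, 1220, 864 and 1076 in the oil-DBP testes. All exposed testes were above all controls, with means of 549 ± 84.6 and 952 ± 250 (SD, n = 4 each) and a log2 difference of 0.68 ± 0.14 (adjusted p = 0.00348). The call held under all 20 alternatives, between 0.57 and 0.84. Its start region (chr5:43401545-43401794, plus strand, GRCr8) is shown because Ndufaf4 was the single member called higher. Capitals mark 2 overlapping NRF1 matches, the same stretch read on each strand, and an SP/KLF match. The NRF1 motif was also in the start regions of Sdha, Sdhaf4, Atp5me, Ndufv3 and Ndufa5, which were called lower. It was absent from those of the other members called lower.
Ndufaf4: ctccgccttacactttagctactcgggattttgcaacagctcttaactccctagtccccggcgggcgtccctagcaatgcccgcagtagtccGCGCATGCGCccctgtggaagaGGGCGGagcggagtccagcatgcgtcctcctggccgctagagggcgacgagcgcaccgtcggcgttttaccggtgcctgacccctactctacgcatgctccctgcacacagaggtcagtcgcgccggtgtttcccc

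Complex II and its assembly factors made up 3 of the 12 falls. Sdhaf4, which helps to load the flavoprotein onto the iron-sulfur subunit, read 509, 507, 619 and 577 in the oil-oil and 396, 415, 484 and 379 in the oil-DBP testes. Every exposed testis was below every control (log2 difference -0.45 ± 0.11, adjusted p = 0.0112), and the call held under all 20 alternatives, from -0.58 to -0.39. Sdhaf2, which attaches the flavin to Sdha, read 1443, 1530, 1440 and 1515 in the controls and 1268, 922, 1344 and 1171 after DBP. The groups were again apart (log2 difference -0.41 ± 0.11, adjusted p = 0.0183). Sdha itself read 4224, 3931, 4709 and 4302 against 3586, 3394, 3853 and 3641, also without overlap (log2 difference -0.31 ± 0.08, adjusted p = 0.0143). The calls for Sdhaf2 and Sdha held under 16 and 15 of the 20 alternatives.

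The only complex V subunit called was Atp5me, the subunit e of the membrane sector. It read 2667, 3024, 2684 and 2440 in the oil-oil and 2284, 1784, 1924 and 2170 in the oil-DBP testes, with no overlap (log2 difference -0.47 ± 0.11, adjusted p = 0.0109). Cox7a2l, the supercomplex factor, read 2443, 2102, 2508 and 2246 against 2053, 1855, 2023 and 1957, again with every exposed testis lower (log2 difference -0.30 ± 0.07, adjusted p = 0.0146). The calls for Atp5me and Cox7a2l held under 17 and 14 of the 20 alternatives, with differences of -0.24 and -0.23 at the weakest. In complex I, the falls were Ndufv3 (-0.39 ± 0.12, adjusted p = 0.0416), Ndufa9 (-0.36 ± 0.10, adjusted p = 0.0307), Ndufa6 (-0.35, adjusted p = 0.0435), Ndufb1 (-0.32, adjusted p = 0.0491) and, named after their values were seen, Ndufa5 (-0.30), Ndufa13 (-0.28) and Ndufb2 (-0.27). Ndufa9, Ndufb1, Ndufa6 and Ndufv3 were the least stable of the calls followed, being called under 7, 7, 8 and 9 of the 20 alternatives. Ndufa9 was at 0.06 when its probe sets were averaged. The stability of the calls for Ndufa5, Ndufa13 and Ndufb2 was not followed. The testis isoforms did not pass, at -0.26 ± 0.10 for Cox7b2 (adjusted p = 0.110) and -0.22 ± 0.10 for Cox6b2 (adjusted p = 0.172).

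The number of members called lower hung on single arrays. It was 34 without pup 105, 1 without pup 111 and 5 to 7 without pup 104, 110, 114, 115 or 121 in turn. With arrays centred on their medians, the members' median deviation from the oil-oil mean was -0.07 for pup 105 and -0.26 for pup 111. It was -0.14 for pup 115 and -0.22 for pup 121. With arrays as deposited the values were -0.04, -0.14, -0.09 and -0.17 in the same order, so that pup 121 deviated most. Across these groups 6 smooth muscle markers summed to 3183 to 3451 in oil-oil and 4516 to 5293 in oil-DBP, with 4 of 6 called higher, and 7 Leydig cell markers to 14755 to 20529 and 6444 to 13649, with 1 called higher and 3 lower. The 8 spermatid markers summed to 115099 to 155354 in oil-oil and 93398 to 135213 in oil-DBP, all 8 had differences below 0 (median -0.41) and 5 were called lower. The 6 spermatocyte markers summed to 64025 to 71437 and 60124 to 66125, all 6 were below 0 (median -0.11) and limma called none, with 1 at an unadjusted p under 0.05. Their part in the members' differences was not tested.

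**Figure D4:**
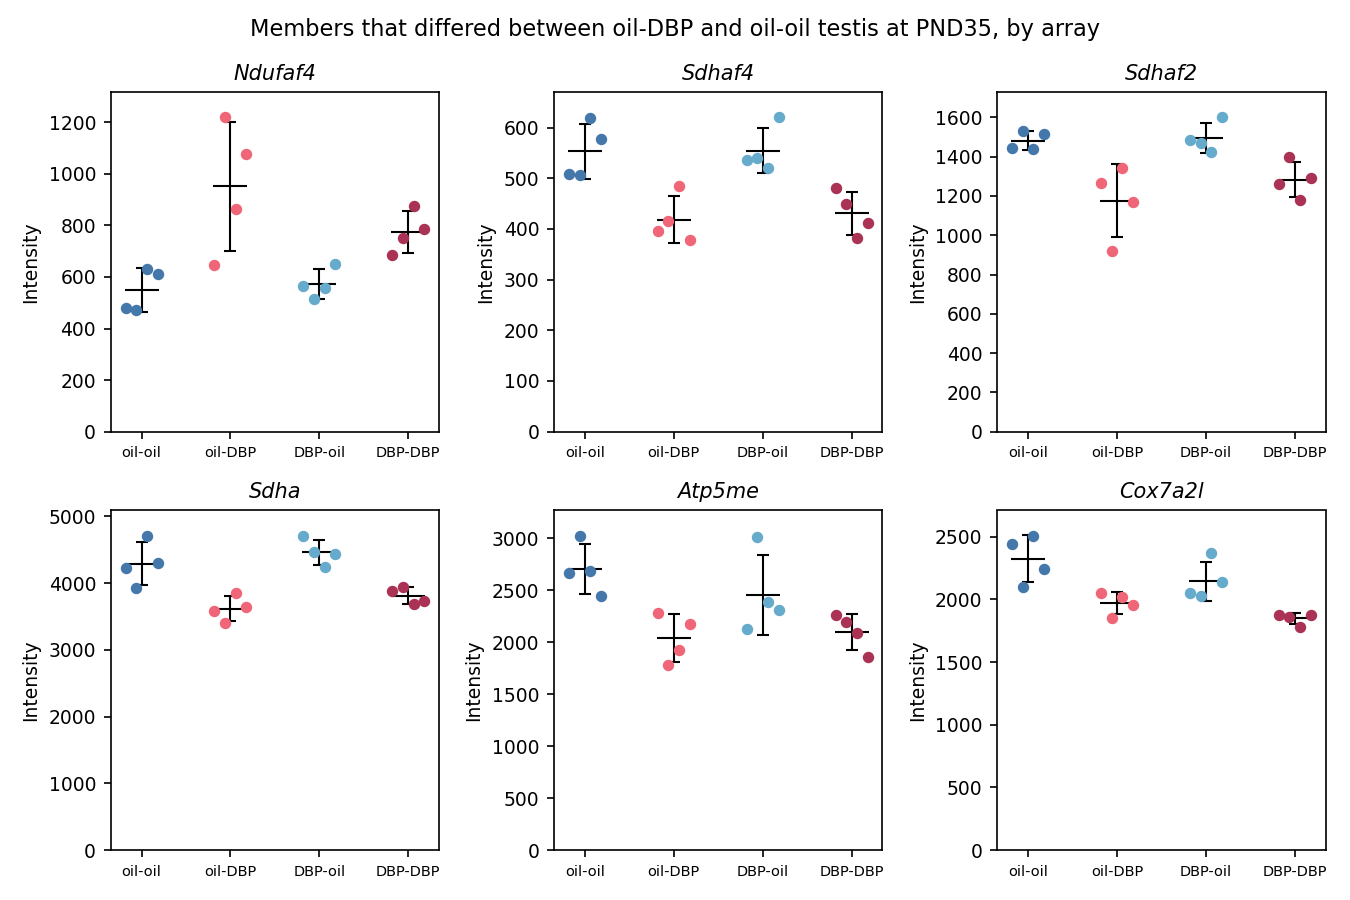
Intensity of Ndufaf4, Sdhaf4, Sdhaf2, Sdha, Atp5me and Cox7a2l in the 4 PND 35 groups on linear axes from 0; points are arrays, and bars are the mean ± SD of 4 arrays. The oil-DBP arrays lie above the oil-oil arrays for Ndufaf4 (952 against 549 on average) and below them for the other 5.

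The same acute dose after a fetal history of DBP, DBP-DBP against DBP-oil, gave no call among the members in limma. An unadjusted p under 0.05 was found for 19 members, against 4630 of the 31042 probe sets. Alternative settings called up to 3 lower and 1 higher, and among all genes 5.16% were called higher and 2.17% lower. The smallest adjusted p was 0.0505, for the supernumerary complex I subunit Ndufa3 (log2 difference -0.35 ± 0.10). Sdhaf4 read 537, 540, 521 and 621 in the DBP-oil and 480, 448, 383 and 412 in the DBP-DBP testes. All of the latter were below all of the former, at a log2 difference of -0.37 ± 0.11 (adjusted p = 0.0518). Sdha (-0.25, adjusted p = 0.0747) and Cox7a2l (-0.23, adjusted p = 0.0881) followed. Ndufaf4 read 566, 513, 556 and 651 in DBP-oil and 684, 750, 876 and 787 in DBP-DBP, apart and higher after DBP, at 0.41 ± 0.14 (adjusted p = 0.126).

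The DBP-DBP arrays were all above the DBP-oil arrays for 1 member, against 7.84% of all genes, and all below for 17, against 7.53%. The median difference was -0.12 over the members and -0.07 over all genes. The spike-in controls split these arrays too, into a high class (mean log2 7.31 to 7.53; pups 132 and 134 and all DBP-DBP arrays) and a low class (5.90 to 6.14; the other 10 arrays). With a term for that class in the fit the member median was -0.05. Only DBP-oil held both classes, so that fit sets DBP-DBP against pups 132 and 134 alone. The smooth muscle markers summed to 2729 to 3947 in DBP-oil and 4722 to 5042 in DBP-DBP, with 5 of 6 called higher, and the Leydig cell markers to 12499 to 17336 and 10784 to 13222, with 1 called lower. The spermatid markers summed to 101634 to 136557 and 100668 to 109999, and all 8 had differences below 0 (median -0.22), with none called in limma and none at an unadjusted p under 0.05. The part of these markers was not tested. The acute comparisons after oil and after DBP share no arrays. In both of them 76 of the 90 members were below 0 and 4 above 0, so that 88.9% had the same sign, against 72.9% of all genes. These shares cannot be compared as agreement, since 81 members were below 0 in each comparison taken alone. Such one-sided counts give mostly equal signs by themselves. Of all genes, 35.4% were above 0 after oil and 37.2% after DBP. Across the members the differences correlated with r = 0.46, and across all genes with r = 0.75. These are descriptions across genes, which are not independent replicates.

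**Figure D5:**
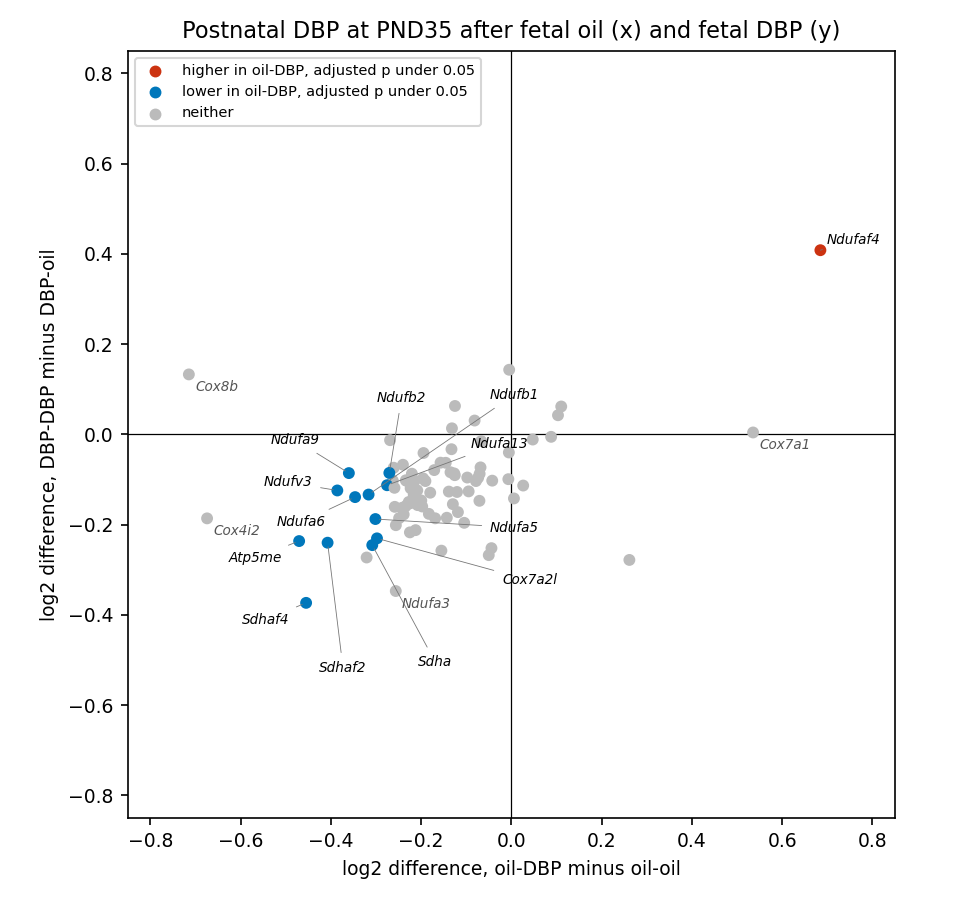
Log2 difference of each of the 90 members after DBP at PND 35, with a fetal history of oil on the horizontal axis and of DBP on the vertical axis; colours mark the members called in the first comparison. Most points, 76 of 90, lie below 0 on both axes, and Ndufaf4 stands alone at 0.68 and 0.41.

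Whether the acute response differed by fetal history was tested as an interaction. No member passed in limma, none had an unadjusted p under 0.05, and the smallest adjusted p was 0.954. Among all genes 0% were called in either direction, so the comparison had no call to set the members against. For Ndufaf4 the interaction was -0.28 ± 0.20, with a 95% interval from -0.70 to 0.14. For Sdhaf4 it was 0.08 ± 0.15, from -0.24 to 0.40. These intervals include 0 and also differences as large as the acute response of each gene or nearly so.

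Fetal DBP alone left no called difference at PND 35. In DBP-oil against oil-oil limma called 0 members, each alternative gave 0, and 0% of all genes were called. An unadjusted p under 0.05 was found for 16 members, against 2299 of the 31042 probe sets. The median was -0.10 over the members and -0.03 over all genes. Within the low spike-in class it was -0.02, with pups 123 and 127 as the only DBP-oil arrays. On arrays centred on their medians, the members' median deviation from the oil-oil mean was -0.02 and -0.01 for those pups. It was -0.18 and -0.17 for pups 132 and 134. The DBP-oil arrays were all above the oil-oil arrays for 2 members and all below for 7, against 1.81% and 1.86% of all genes. The smallest adjusted p was that of Atp5mk, a small membrane subunit of complex V (log2 difference -0.31 ± 0.07, adjusted p = 0.173), and the ubiquitous isoforms Cox7b (-0.30 ± 0.09, adjusted p = 0.351) and Cox8a (-0.23, adjusted p = 0.372) were among the next. Cox7b read 1135, 1098, 1127 and 1172 in the DBP-oil testes, each below the lowest oil-oil array at 1221. Cox7b2 read 20621, 22498, 21652 and 20810, which overlapped the oil-oil arrays, and Cox6b2 overlapped them too. In DBP-DBP against oil-DBP limma also called 0 members, 0 under each alternative and 0% of all genes. There 10 members had an unadjusted p under 0.05, against 2791 of the 31042 probe sets. The member median of that comparison was -0.04, and 0.11 with a term for the class of spike-in values. The DBP-DBP arrays were all above the oil-DBP arrays for 1 member and all below for 13, against 2.50% and 3.13% of all genes. All DBP-DBP arrays were in the high class and all oil-DBP arrays in the low class, so the fetal exposure and the class cannot be told apart there.

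Across all 6 groups the testis isoforms and Ndufaf3 kept the order set by age. The lowest PND 35 value of Cox7b2 was 18303, that of Cox6b2 was 11363 and that of Ndufaf3 was 14365, and the highest GD 20 values were 1393, 1655 and 1117. Cox7b ran the opposite way, with 7448 as its lowest GD 20 value and 1548 as its highest at PND 35. No DBP group crossed the gap between the ages for any of these 4 genes.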

How the data were processed

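RNA from 24 testes or litters, 4 in each of 6 groups, was hybridised to Affymetrix Rat Genome 230 2.0 arrays. The authors deposited linear probe-set intensities, scaled so that the 2% trimmed mean of each array was 500.135 to 500.194. GCOS 1.0 is named in the submitters' processing notes, and the summarization algorithm and detection calls were not given in the sources used here. Of 31099 probe sets, 57 controls were left out, and of the other 31042, 20826 had 1 gene symbol in the platform annotation, 436 several and 9780 none. A further 7 probe sets matching the symbols of the members were left out for carrying several symbols. All 90 members matched the RefSeq gene table (GRCr8), which changed no symbol. For 4 members the probe set detects several transcripts of the gene by its suffix (_a_at).

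From the deposited intensities, log2(intensity + 16) was computed and fitted with limma 3.58.1 in R 4.3.3 (lmFit, eBayes with an intensity trend) and Benjamini-Hochberg adjustment over all probe sets. The GD 20 fit used 8 arrays as deposited, the PND 35 fit all 16 arrays centred on their medians, and the age fit the 8 control arrays as deposited. Array medians were 164 to 175 at GD 20 and 101 to 114 at PND 35. The code was checked on simulated data. Groups were taken as not overlapping on the deposited intensities. Alternatives covered scaling, pseudocounts of 1 and 64, a filter at a mean intensity of 100, the variance model, the probe set of a gene, single arrays, extraction, pup blocks, the arrays in the fit and the spike-in class.

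The members and lists were chosen with earlier results of these data known. Named members were the isoform pairs, regulators, complex II and complex I core subunits, up to 8 rises and 8 falls per comparison, the 5 smallest p-values where fewer than 5 passed, and the largest rise and fall per complex with age. Genes outside the members came from preset lists, at most 4 per list and comparison, with all carriers.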

Additional observations from a re-analysis of the deposited data

Results flagged for a closer look

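In each of the 288 sets of 4 arrays formed by 48 named members and 6 groups, the highest or lowest array was set against the range of its group by Dixon's criterion, and 26 stood apart. Chance sets apart about 1 in 20 groups. In the fetal oil testes, Atp5mk read 8828 in dam 3 (7565 to 7696 in the other dams), Cox6b2 read 1064 in dam 2 (1282 to 1303), Ndufaf7 read 304 in dam 3 (394 to 410) and Sdhd read 3350 in dam 5 (3624 to 3672).

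In the fetal DBP testes the array of dam 21 stood apart for 3 members. Cox7b2 read 1393 there (480 to 623 in the other dams), Ndufs1, a core subunit of complex I, read 2076 (2367 to 2419) and Sdha read 4732 (5328 to 5405). In dam 18 the muscle form Cox8b read 82.5 (17.3 to 24.7) and Ndufa4l2 read 288 (170 to 181). Ndufa9 read 2977 in dam 19 (2698 to 2740).

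In the oil-oil testes Ndufa4 read 2723 in pup 110 (3414 to 3518), Ndufaf3 read 15092 in pup 120 (17834 to 18191) and Uqcrq read 8397 in pup 104 (6823 to 6955). In the oil-DBP testes pup 105 stood apart for Ndufab1, the acyl carrier protein of complex I (5192, against 5936 to 6064), for Ndufs7 (5024, against 3686 to 3823) and for Ndufv2 (9933, against 8687 to 8805). Pup 111 stood apart for Atp5mpl (3030, against 2705 to 2759), Cox6a2 (43.3, against 5.34 to 9.57) and Ndufb11 (3174, against 3430 to 3450). These are the 2 pups whose removal moved the number of members called lower after acute DBP to 34 and to 1.

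In the DBP-oil testes pup 127 stood apart for Cox6a2 (58.8, against 6.55 to 9.02), Cox8b (29.3, against 3.62 to 4.68) and Ndufs8 (2566, against 2712 to 2734). In the DBP-DBP testes Cox8b read 31.6 in pup 128 (5.06 to 7.99), Ndufa3 read 2487 in pup 124 (2153 to 2205), Ndufaf3 read 17155 in pup 124 (14667 to 14871) and Ndufaf7 read 1015 in pup 135 (1094 to 1097).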

How the results depend on the processing

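All counts called at GD 20, for DBP-oil against oil-oil, for DBP-DBP against oil-DBP and for the interaction were 0 under each alternative run, and 1 member was called higher in oil-DBP against oil-oil under each. The 12 members lower in that comparison became 4 with arrays as deposited, 7 centred on the 75th percentile, 3 after quantile normalization, 25 of 86 with the filter at an intensity of 100, 1 without the intensity trend, 7 without the Trizol arrays and 2 with only the compared arrays. They ranged from 1 to 34 with single arrays left out, and the lone call without pup 111 was shared with the 12. In DBP-DBP against DBP-oil, where none was called lower, 1 was with arrays as deposited, 3 at the 75th percentile, 2 after quantile normalization, 1 with each other pseudocount, 3 with the filter, 2 with probe sets averaged, 1 without the Trizol arrays, 2 with adjacent pup numbers as a block, 2 (and 1 higher) with only the compared arrays, and 0 to 2 with single arrays left out. With age, 15 lower became 8 with arrays centred on the median and 25 after quantile normalization, and single arrays left out gave 61 to 63 higher and 14 to 15 lower.

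Some signs turned. Ndufa9 was 0.060 in oil-DBP against oil-oil with its probe sets averaged. With age, centring on the median gave 0.61 for Atp5mc3, 0.40 for Sdha, 0.25 for Sdhb and 0.37 for Sdhc, the 75th percentile gave 0.25 for Atp5mc3, 0.047 for Sdha and 0.014 for Sdhc, and quantile normalization gave -0.17 for Cox6a1 and -0.31 for Ndufv1. Centring moved every age difference by the same amount, 0.65 on the median and 0.30 on the 75th percentile, which turned the small falls. The second, dimmer probe set of Ndufa9 read 0.48 in oil-DBP against oil-oil and entered its average. The cause of the turns after quantile normalization was not tested. Of the other values of named members, 4391 kept direction and side of the threshold, 68 fell below it and 40 passed it.

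The comparisons within a single spike-in class were chosen after seeing the data. They gave a median of -0.05 for DBP-DBP against DBP-oil (high class only) and -0.02 for DBP-oil against oil-oil (low class only). The DBP-oil arrays left were those of pups 132 and 134 in the first and of pups 123 and 127 in the second. Both give the same estimates as the fit with the class term, since only DBP-oil held both classes. The groups share no replicate number and no pairing is labelled. Adjacent pup numbers were tried as a block, and the correlations of their deviations from the group means ran from -0.13 to 0.24. With 4 arrays a group and no detection calls, dim members such as Cox6a2 and Cox8b have no reliable fold change.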

Other observations

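Of 8 somatic and testis isoforms of energy enzymes and carriers, 5 were called higher with age and 3 lower, against 29.6% and 44.4% of all genes. Ldhc, the testis lactate dehydrogenase, averaged 159 in the GD 20 oil and 28415 in the PND 35 oil-oil testes (log2 difference 7.33), Gapdhs, the testis glyceraldehyde phosphate dehydrogenase, 67.6 and 8082 (6.59), and Pdha2, the testis pyruvate dehydrogenase subunit, 171 and 3850 (4.38). The somatic partners did not all move one way: Ldha rose from 6982 to 12597 (0.85), while Pdha1 fell from 2475 to 504 (-2.26) and Pgk1, a glycolytic kinase, from 7200 to 1691 (-2.08). The ADP/ATP carrier Slc25a4 fell from 10503 to 4121 (-1.36) and its testis relative Slc25a31 rose from 1876 to 2903 (0.63), while the phosphate carrier Slc25a3 (-0.36) and the carrier Slc25a5 (-0.24) fell. Both mitochondrially encoded complex IV subunits on the array were higher, COX1 by 0.69 ± 0.08 (adjusted p = 2.47e-06) and COX2 by 0.28 ± 0.08 (adjusted p = 0.0067), each in limma.

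Assembly factors outside the members split with age, with 13 of 31 called higher and 14 lower. Uqcc2, a complex III factor, rose by 2.48 ± 0.08, and Atpaf1, a complex V factor, fell by 1.31 on the log2 scale. Of 11 citric acid cycle genes 4 were higher and 5 lower, among them Sucla2 (1.65 ± 0.08) and Idh3g (-1.41 ± 0.07). Of 12 regulators of mitochondrial biogenesis 4 were higher and 6 lower, and Tfam (-2.09 ± 0.10), Nrf1 (-1.72 ± 0.14) and Gabpa (-1.48 ± 0.11) fell. Among all genes 29.6% were called higher and 44.4% lower with age. The counts for the cycle genes and the biogenesis regulators lay near those shares.

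After acute DBP, 2 of those 31 assembly factors (6.45%) were called lower with a fetal history of oil, near the 5.99% of all genes. With a fetal history of DBP 2 were called lower (6.45%), against 2.17% of all genes. Acad9, which serves complex I assembly beside fatty acid oxidation, averaged 1401 in oil-oil and 998 in oil-DBP (log2 difference -0.56 ± 0.13, adjusted p = 0.00971 in limma), and 1377 in DBP-oil and 925 in DBP-DBP (-0.58 ± 0.13, adjusted p = 0.00908). Uqcc3, a complex III factor, averaged 871 and 668 (-0.44 ± 0.11, adjusted p = 0.0119), and 846 and 661 (-0.38 ± 0.11, adjusted p = 0.0439). With a fetal history of oil, 3 of 11 citric acid cycle genes were called lower (27.3%, against 5.99% of all genes). They were the succinyl-CoA ligase subunits Suclg2 (-0.37), Sucla2 (-0.33) and Suclg1 (-0.27). Sdha fell beside them, and Slc25a4 was called higher (0.45). With a fetal history of DBP, 0 of those 11 genes were called, against 2.17% of all genes called lower. Their smallest adjusted p in limma was 0.248, and Slc25a4 was not called either.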
